A study of Mus musculus with 8 samples.

Results

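The genes described here are those of cholesterol synthesis together with SREBP2, the transcription factor that drives them, and genes of sterol sensing, transport and efflux. The module was defined as a list of 32 gene symbols by their known roles. Its rule uses no measured value, though the list was drawn up with earlier results of these data known. Of the 32, 30 were measured by a probe set naming only that gene, among 18820 genes in all. Acat2 and Soat1 had no such probe set and were not analysed here. Each of 8 arrays held total RNA from white adipose tissue of 1 male mouse of a mixed C57BL/6N and C57BL/6J background after 5 weeks on a high fat diet (Research Diets D12492). In the 4 Sel1l-/- mice, floxed Sel1l alleles had been recombined by an adiponectin-promoter Cre, which acts in fat cells and does not target the other cells of the tissue. The 4 wildtype (WT) mice ate the same diet. Sel1l is the adapter of the Hrd1 ubiquitin ligase, which withdraws misfolded proteins from the endoplasmic reticulum (ER). The sources used here do not give age, fat depot, kinship of the mice or whether the WT mice carried floxed alleles. Because whole tissue was profiled, fewer cells of a type and less RNA per cell cannot be told apart.

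Cholesterol is built from acetyl-CoA in the cytosol and at the ER membrane. A first arm makes mevalonate and from it the isoprenoid farnesyl diphosphate, from which squalene, lanosterol and finally cholesterol are formed. When sterol in the ER membrane is low, Scap escorts the membrane-bound precursor of SREBP2 to the Golgi, where proteases release its active part. When sterol is plentiful, the Insig proteins hold Scap in the ER. Insig proteins also guide sterol-dependent degradation of some ER enzymes by ubiquitin ligases. Fat cells store much of the body's free cholesterol, largely in the lipid droplet and the plasma membrane.

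Upstream sequences are shown for 4 synthesis genes because SREBP2 acts at such sites, usually next to a bound NF-Y factor, whose site is the CCAAT box. They were Lss, the member with an adjusted p under 0.05, Hmgcs1, the first measured enzyme of the pathway, Cyp51, the first enzyme after lanosterol, and Idi1 as a gene whose interval spanned 0. Each stretch is the 160 bases before the annotated start of the gene in RefSeq (GRCm38.p6), on the gene's own strand, with CCAAT boxes (CCAAT or its reverse ATTGG) and the core of the classical sterol response element (TCACNCCAC) in capitals.
Lss, plus strand, chr10:76531405-76531564: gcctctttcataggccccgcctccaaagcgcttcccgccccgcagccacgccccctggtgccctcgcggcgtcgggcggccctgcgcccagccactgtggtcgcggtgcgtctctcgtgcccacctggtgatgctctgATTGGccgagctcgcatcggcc
Hmgcs1, plus strand, chr13:119690191-119690350: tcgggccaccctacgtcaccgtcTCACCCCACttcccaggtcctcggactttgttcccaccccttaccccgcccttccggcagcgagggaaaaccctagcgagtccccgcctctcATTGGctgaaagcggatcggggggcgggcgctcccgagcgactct
Cyp51, minus strand, chr5:4104698-4104857: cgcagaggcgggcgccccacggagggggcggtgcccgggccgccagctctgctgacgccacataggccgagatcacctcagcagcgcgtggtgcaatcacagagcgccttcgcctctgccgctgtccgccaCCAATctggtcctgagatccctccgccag
Idi1, plus strand, chr13:8885446-8885605: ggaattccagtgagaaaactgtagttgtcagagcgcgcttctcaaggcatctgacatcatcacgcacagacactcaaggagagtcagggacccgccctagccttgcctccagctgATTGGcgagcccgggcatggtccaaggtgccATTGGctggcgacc

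The CCAAT box of Lss begins 22 bases before the gene start, those of Hmgcs1 and Cyp51 45 and 29 bases before it, and the 2 of Idi1 45 and 14 bases before it. The sterol response element core of Hmgcs1 begins 137 bases before the start. Promoter windows from 250 bases before to 50 bases after a start were held for 24 of the 30 members, and both strands were searched. A CCAAT box lay in a window of 22 of these 24 members (91.7%), against 41.1% of 27025 genes with a window. The GC box GGGCGG, an Sp1 site, lay in 21 (87.5%), against 38.2% of genes. An exact match to the sterol element core lay only in Hmgcs1 (4.17%, against 1.44% of genes), and the E-box CACGTG lay in 6 of the 24 members (against 8.09%). The ER stress element, searched as CCAAT and CCACG with 9 bases of any kind between them and thus holding a CCAAT box, was in none of the 24 and in 0.137% of genes. These are letter matches, not shown to be bound sites. Sites that depart from the searched letters were not counted, so a gene without a match may still hold a site.

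Values are log2 expression, and an adjusted p is that of limma over all genes, passed under 0.05. The genotype labels were checked on Sel1l, whose level was 10.57 ± 0.07 over the WT and 9.78 ± 0.21 over the Sel1l-/- arrays (SD, n = 4 each, adjusted p = 0.0109). The Sel1l-/- arrays, at 9.56 to 10.07, all lay below the WT arrays, at 10.48 to 10.65. Each mouse has a code of a letter and a number in the labels. WT 1, 2 and 3 have letter E, WT 4 and Sel1l-/- 1 and 2 letter F, and Sel1l-/- 3 and 4 letter G. With the letter as a block, genotypes are thus compared only among the letter F mice, WT 4 against Sel1l-/- 1 and 2. As blocks, the letter gave an adjusted p of 0.151 for Sel1l and the number 0.0813, and an unmoderated test gave 0.0540, so the call was lost in these 3 fits. Whether its probes lie in the deleted exons is not known here. All 9 measured adipocyte markers, Adipoq and Plin1 among them, lay above the median level of all genes, and so did all 12 macrophage and all 9 endothelial markers. Hepatocyte and pancreas markers lay below it (5 of 5 and 3 of 3). The log2 of the summed linear macrophage signal was 13.80 to 14.45 in WT and 14.00 to 14.78 in Sel1l-/- mice. That of the endothelial markers was 13.49 to 13.63 against 13.00 to 13.33, without overlap, and that of the adipocyte markers 15.72 to 15.96 against 15.45 to 15.80. All 9 endothelial markers had negative differences with an unadjusted p under 0.05, and 7 of them (77.8%, against 10.3% of all genes) did not overlap between genotypes. Of these 9, Pecam1 fell (-0.39, adjusted p = 0.0290), where 0.685% of all genes were lower, and with the replicate numbers as a block Tek and Esam fell too. No macrophage or adipocyte marker passed, apart from Adipoq with that block (-0.56, adjusted p = 0.0204). Differences were positive for 11 of the 12 macrophage markers (median 0.37) and negative for all 9 adipocyte markers (median -0.11). Over all genes 48.8% were positive. Single markers are named after their values were seen, and the part of cell makeup in the members' differences was not tested.

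Of the 30 members, 1 rose in Sel1l-/- fat, Lss, and none fell. That is 3.33% of the members, where 1.72% of all genes passed, 1.04% being higher and 0.685% lower. An unadjusted p under 0.05 was reached by 4 members (Lss, Fdps, Hmgcs1 and Fdft1) and by 15.0% of all genes. The arrays of the genotypes did not overlap for 2 members, Lss and Fdps, both higher in Sel1l-/- mice. These are 6.67% of the members, against 10.3% of all genes, 5.22% higher and 5.07% lower. Counts this small lie near the background. Differences were positive for 17 members and negative for 13, with a median of 0.04 on the log2 scale, against -0.0037 over all genes. With the replicate numbers of the titles as a block, 2 members rose (Lss and Fdps) and 1 fell (Fdft1), where 1.9% of all genes were higher and 1.95% lower. Without WT 1, WT 2, Sel1l-/- 1, Sel1l-/- 2 or Sel1l-/- 3, no member passed.

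**Figure D1:**
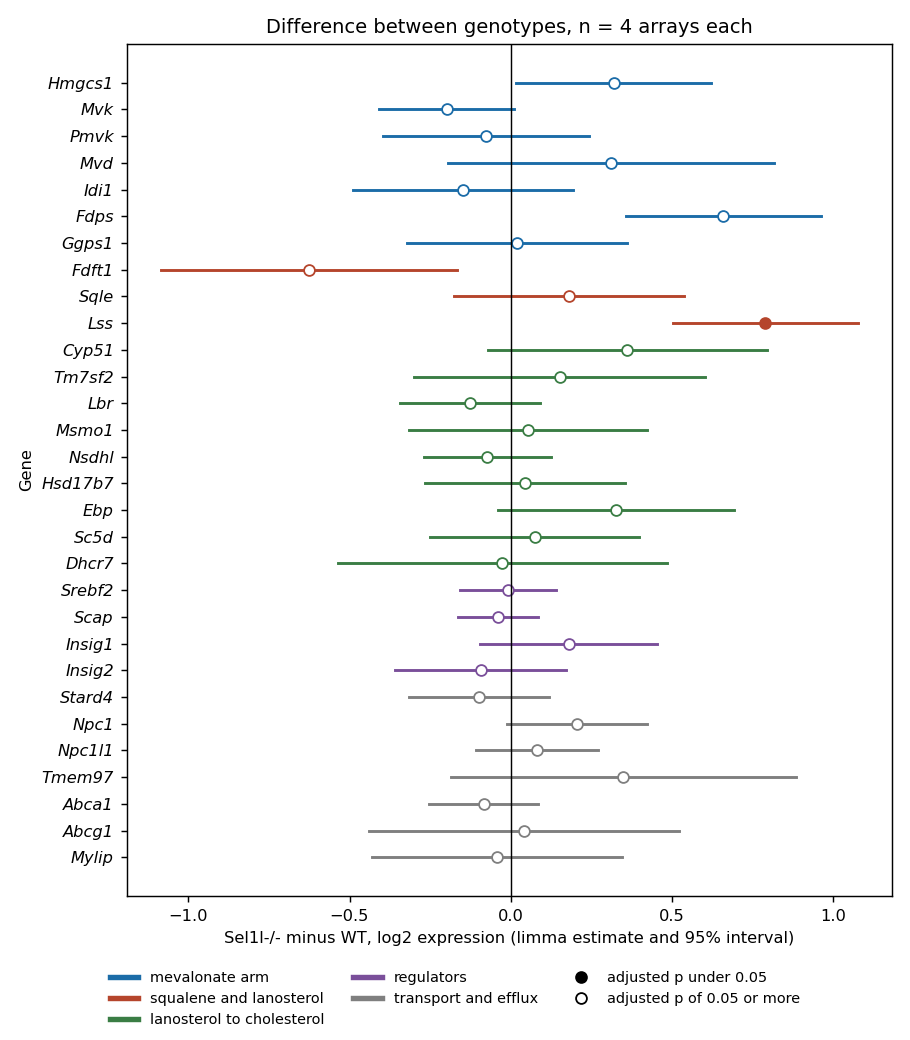
Difference in log2 expression between Sel1l-/- and WT fat for the 30 measured genes (limma estimate as a point, 95% interval as a line, n = 4 arrays per genotype), coloured by role. Lss, at 0.79, is the one filled point, Fdps at 0.66 lies next to it, and Fdft1 at -0.63 is the gene farthest to the left.

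In the mevalonate arm none of 7 genes passed limma's threshold, 2 had an unadjusted p under 0.05 (Fdps and Hmgcs1), and the gene with the smallest p was Fdps, farnesyl diphosphate synthase, which makes the last isoprenoid shared by sterols and prenylated proteins. Fdps read 8.74, 8.92, 8.37 and 8.87 in WT mice 1 to 4 and 9.41, 9.19, 9.36 and 9.59 in Sel1l-/- mice 1 to 4. Every Sel1l-/- array lay above every WT array. The difference was 0.66 on the log2 scale (standard error 0.13, 95% interval 0.36 to 0.96), a 1.58-fold higher level, with limma adjusted p = 0.0501. With the replicate block the adjusted p was 0.0402. Letter F of the mouse codes is shared by WT 4 and Sel1l-/- 1 and 2, among which Fdps differed by 0.43. Among mice sharing number 5, 7 or 9 it differed by 0.55, 0.58 or 0.82.

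Hmgcs1, the synthase that condenses acetyl-CoA units into HMG-CoA at the head of the arm, read 10.90, 10.97, 10.90 and 11.38 in WT and 11.63, 11.19, 11.29 and 11.32 in Sel1l-/- mice. WT 4 lay among the Sel1l-/- arrays, and the other 3 WT arrays below all of them. The difference was 0.32 (95% interval 0.02 to 0.62, adjusted p = 0.310), with 0.03 among the letter F mice. Mvd, the decarboxylase that yields isopentenyl diphosphate, read 6.97, 7.06, 6.19 and 7.27 in WT and 7.17, 7.05, 7.03 and 7.49 in Sel1l-/- mice. WT 1 and WT 3 lay below every Sel1l-/- array, WT 3 much farther than WT 1, and WT 2 and WT 4 lay among them. The difference was 0.31 (-0.19 to 0.82, adjusted p = 0.576) and 0.08 without WT 3.

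Mvk, Pmvk and Idi1, steps on the way to farnesyl diphosphate, had negative differences that did not pass. Mvk, mevalonate kinase, had WT arrays at 9.10 ± 0.14 and Sel1l-/- arrays at 8.90 ± 0.13 (SD, n = 4), a difference of -0.20 (-0.41 to 0.01, adjusted p = 0.361). Pmvk, the kinase that follows it, differed by -0.08 (-0.40 to 0.24) and Idi1, the isomerase of isopentenyl diphosphate, by -0.15 (-0.49 to 0.19). A dimmer probe set for Idi1 gave -0.17. Ggps1, which draws farnesyl diphosphate off towards protein prenylation, differed by 0.02 (-0.32 to 0.36). The intervals of Hmgcs1 and Fdps thus lay above 0, before adjustment, and those of the other 5 genes spanned it.

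Squalene and lanosterol formation held both the gene that rose and the largest negative difference of the module. Lss, lanosterol synthase, closes the rings of squalene epoxide to make the first sterol. It read 8.95, 8.87, 8.59 and 9.11 in WT mice 1 to 4 and 9.92, 9.53, 9.64 and 9.58 in Sel1l-/- mice 1 to 4. The lowest Sel1l-/- array lay 0.42 above the highest WT array. The level was 1.73-fold higher, with a log2 difference of 0.79 (standard error 0.13, 95% interval 0.50 to 1.08, adjusted p = 0.0232).

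The rise of Lss was positive in each same-numbered pair of mice, by 0.48 to 1.05. It was 0.62 among the letter F mice, on which alone the letter block rests, and 0.61, 0.89 and 0.95 among mice of numbers 5, 7 and 9. The call was lost with the letter (adjusted p = 0.384) or the number (0.0688) as a block, in an unmoderated test (0.0824), and without WT 1, WT 2 or Sel1l-/- 1, 2 or 3 (0.0682, 0.0724, 0.0548, 0.0608 and 0.0753). None of the 5 measured genes on either side of Lss on its chromosome passed, their differences running from -0.15 to 0.33.

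Fdft1, squalene synthase, commits farnesyl diphosphate to sterols and thus uses what Fdps makes. It read 10.79, 10.42, 10.99 and 10.06 in WT and 10.23, 9.92, 9.94 and 9.67 in Sel1l-/- mice. Sel1l-/- 2, 3 and 4 lay below every WT array, and WT 4 lay below Sel1l-/- 1. The log2 difference was -0.63 (standard error 0.20, 95% interval -1.08 to -0.17, adjusted p = 0.187), with an adjusted p of 0.0449 under the replicate block. It was 0.01 among the letter F mice and -0.49, -0.47 and -1.06 among those of numbers 5, 7 and 9. Across the WT arrays Fdft1 had the order of the summed mesothelial, adipocyte and hepatocyte markers, but not of the endothelial or brown adipocyte sums. Across the Sel1l-/- arrays Fdft1 had the order of the adipocyte, hepatocyte, endothelial and brown adipocyte sums, but not of the mesothelial sum. The other marker sums had its order in neither genotype. These orders of 4 arrays were picked after the values were seen, and the 5 hepatocyte markers all lay below the median level of all genes. The adipocyte sums read 15.94, 15.83, 15.96 and 15.72 in WT mice 1 to 4. In Sel1l-/- mice 1 to 4 they read 15.80, 15.73, 15.78 and 15.45. The mesothelial sums read 12.89, 12.35, 13.06 and 12.21 in WT and 12.30, 12.36, 12.62 and 11.80 in Sel1l-/- mice. All 5 mesothelial markers had negative differences, and none passed except Wt1 with the replicate block (-0.44, adjusted p = 0.0382). The part of cell makeup in the difference of Fdft1 was not tested.

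Sqle, squalene epoxidase, acts between Fdft1 and Lss and is itself a rate-controlling step. It read 8.01, 7.78, 7.32 and 7.49 in WT and 8.05, 7.66, 7.69 and 7.91 in Sel1l-/- mice. The groups overlapped widely, and the difference was 0.18 (-0.18 to 0.54, adjusted p = 0.657). The 3 consecutive enzymes thus differed by -0.63, 0.18 and 0.79, of which Lss alone passed.

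**Figure D2:**
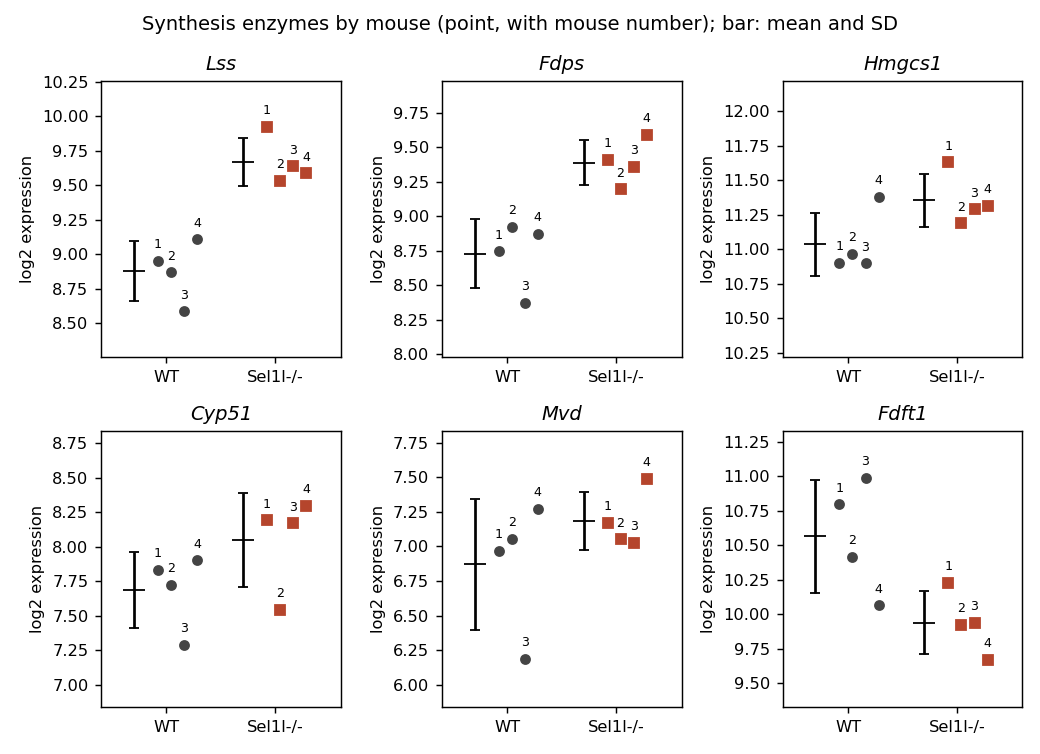
Log2 expression of 6 synthesis enzymes in each mouse (grey circles WT, red squares Sel1l-/-, with the number of the mouse, and mean with SD beside them); all panels span the same 2 log2 units. Lss and Fdps do not overlap between genotypes, WT 3 is the lowest WT mouse in 5 of the 6 panels (next to WT 1 in Hmgcs1), and in Fdft1 it is the highest.

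From lanosterol to cholesterol none of 9 genes passed limma's threshold, none had an unadjusted p under 0.05, and the genotypes overlapped in each. Cyp51, which removes the first methyl group from lanosterol, read 7.83, 7.72, 7.29 and 7.90 in WT and 8.19, 7.54, 8.17 and 8.29 in Sel1l-/- mice. Sel1l-/- 1, 3 and 4 lay above all WT mice and Sel1l-/- 2 did not. The difference of 0.36 had an interval of -0.07 to 0.79 (adjusted p = 0.428). It was 0.53 without Sel1l-/- 2 and 0.23 without WT 3, and -0.04 among the letter F mice. Ebp, the isomerase of the sterol nucleus, read 9.24, 9.49, 9.37 and 9.47 in WT and 9.48, 9.56, 9.60 and 10.24 in Sel1l-/- mice, a difference of 0.33 (-0.04 to 0.69, adjusted p = 0.395) that was 0.15 without Sel1l-/- 4.

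The other late enzymes differed by less. Tm7sf2 and Lbr are both sterol 14-reductases, the latter also a receptor for lamin in the nuclear envelope. They differed by 0.15 (-0.30 to 0.60) and -0.13 (-0.34 to 0.09). Msmo1, Nsdhl and Hsd17b7, which together strip the methyl groups at carbon 4, differed by 0.06 (-0.31 to 0.42), -0.07 (-0.27 to 0.13) and 0.04 (-0.26 to 0.35). Sc5d, a desaturase, differed by 0.07 (-0.25 to 0.40). Dhcr7, which makes cholesterol from its last precursor in 1 branch, differed by -0.03, with the wide interval of -0.54 to 0.49. Its arrays ran from 8.64 to 9.52 in WT and from 8.74 to 9.62 in Sel1l-/- mice.

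**Figure D3:**
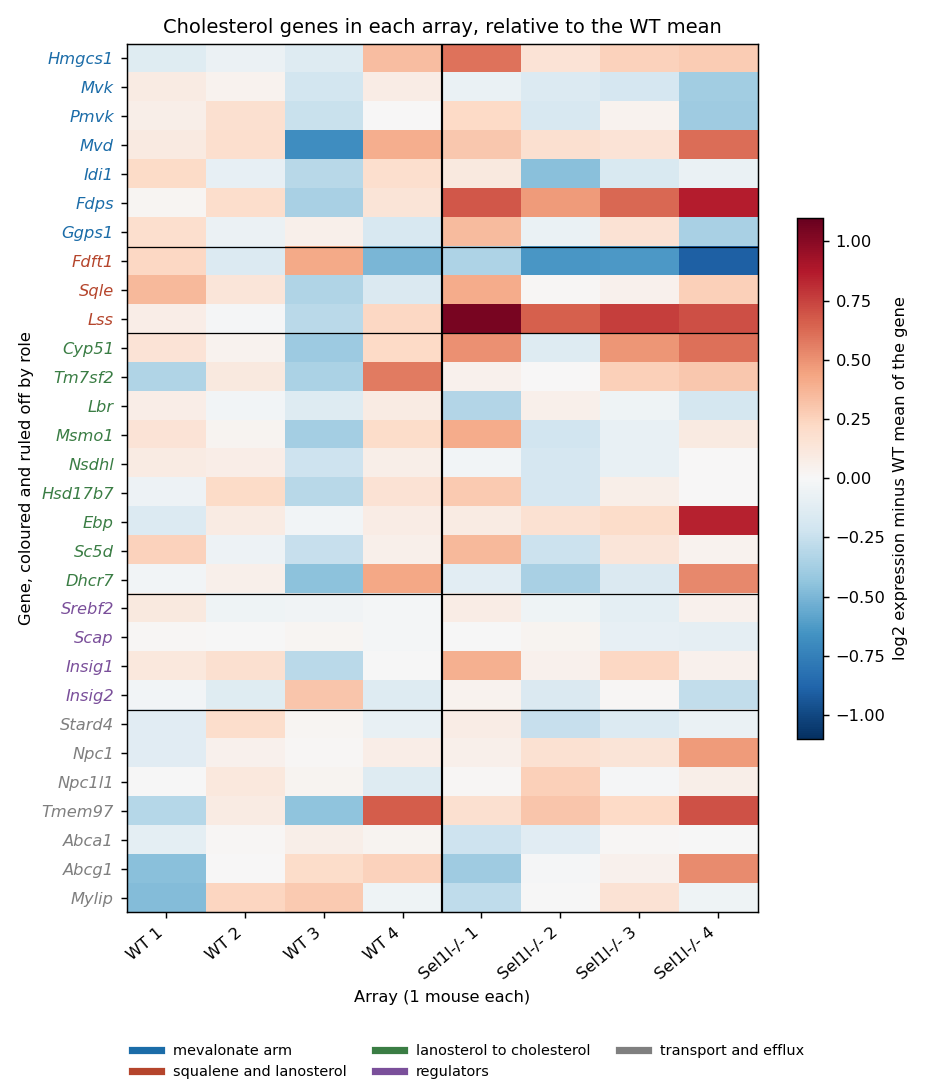
Log2 expression of the 30 measured genes in each of the 8 arrays minus the WT mean of the gene (blue below, red above), ordered and ruled off by role. The rows of Lss and Fdps are red in all 4 Sel1l-/- columns, Fdft1 is blue there, and the column of WT 3 is blue for most synthesis genes.

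None of the 4 genes of sterol sensing passed limma's threshold or had an unadjusted p under 0.05. Srebf2, the gene of SREBP2, had WT arrays at 9.05 ± 0.07, the highest at 9.16, and Sel1l-/- arrays at 9.04 ± 0.08 (SD, n = 4), the highest at 9.13. The difference was -0.01 with an interval of -0.16 to 0.14, and the groups overlapped. Scap, the escort, had WT arrays at 9.11 ± 0.02 and Sel1l-/- arrays at 9.07 ± 0.06 (SD, n = 4), a difference of -0.04 (-0.16 to 0.08). These values concern transcripts, and the cleavage of SREBP2, on which its activity rests, was not measured.

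Insig1, an anchor of Scap and itself a target of SREBP2, read 11.79, 11.85, 11.38 and 11.67 in WT and 12.06, 11.72, 11.90 and 11.72 in Sel1l-/- mice, with overlap and a difference of 0.18 (-0.09 to 0.45, adjusted p = 0.546). Insig2, the second anchor, differed by -0.09 (-0.36 to 0.17). WT 3 was the lowest WT mouse for Insig1, at 11.38, and the highest for Insig2, at 10.23.

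Among genes of sterol transport and efflux none of 7 passed limma's threshold or had an unadjusted p under 0.05. Npc1, which exports cholesterol from lysosomes, read 10.35, 10.52, 10.49 and 10.55 in WT and 10.53, 10.64, 10.62 and 10.94 in Sel1l-/- mice. Sel1l-/- 2, 3 and 4 lay above all WT mice, and the difference was 0.21 (-0.01 to 0.42, adjusted p = 0.362). Tmem97, the sigma-2 receptor and a binding partner of Npc1, differed by 0.35 (-0.18 to 0.88), with 9.27, 9.68, 9.15 and 10.25 in WT and 9.77, 9.89, 9.81 and 10.28 in Sel1l-/- mice. The groups overlapped, a dimmer probe set gave 0.33, and the letter F mice differed by -0.42.

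Abca1 and Abcg1, the efflux pumps induced by the oxysterol receptors LXR, differed by -0.08 (-0.25 to 0.08) and 0.04 (-0.44 to 0.52). Abcg1 read 9.65, 10.12, 10.32 and 10.36 in WT and 9.73, 10.10, 10.16 and 10.63 in Sel1l-/- mice, so that the lowest array of each genotype was mouse 1 and the highest mouse 4. The summed macrophage signal was highest in mouse 4 of each genotype (14.45 and 14.78) and lowest in Sel1l-/- 1 (14.00) and in WT 1 and WT 3 (13.80 each). WT 3, with a sum of 13.80, had the second highest Abcg1 of the WT arrays (10.32). Abca1 read highest in WT 3 (10.78) and Sel1l-/- 3 (10.73), not in mouse 4. Macrophages express both pumps. The part of macrophages in the spread of Abcg1 was not tested. Mylip, an LXR-induced ligase that removes lipoprotein receptors, differed by -0.04 (-0.43 to 0.35), and Stard4, a cytosolic sterol carrier, by -0.10 (-0.32 to 0.12). Npc1l1, the cholesterol importer of the gut, read 4.92 to 5.32 over all arrays, at percentile 32.0 of all genes, and differed by 0.08 (-0.11 to 0.27).

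The synthesis genes varied between mice of 1 genotype more than most genes did, and often in the same mice. The median SD within a genotype over the 19 synthesis genes was 0.24, against 0.13 over all genes. WT 3 was the lowest of the 4 WT mice for 16 of the 19 (84.2%), whereas it was lowest for 27.8% of all genes. Sel1l-/- 2 was the lowest Sel1l-/- mouse for 12 of the 19 (63.2%), against 14.7% of all genes, and Sel1l-/- 1 was the highest for 11 (57.9%, against 31.3%). The genes that did not read lowest in WT 3 were Fdft1, Ggps1 and Ebp. In Mvd, WT 3 lay 0.91 below the mean of the other 3 WT mice, in Dhcr7 0.60 and in Cyp51 0.53 below, while in Fdft1 it lay 0.56 above. This pattern was noticed after the values were seen, and genes under a shared regulator are not independent observations.

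**Figure D4:**
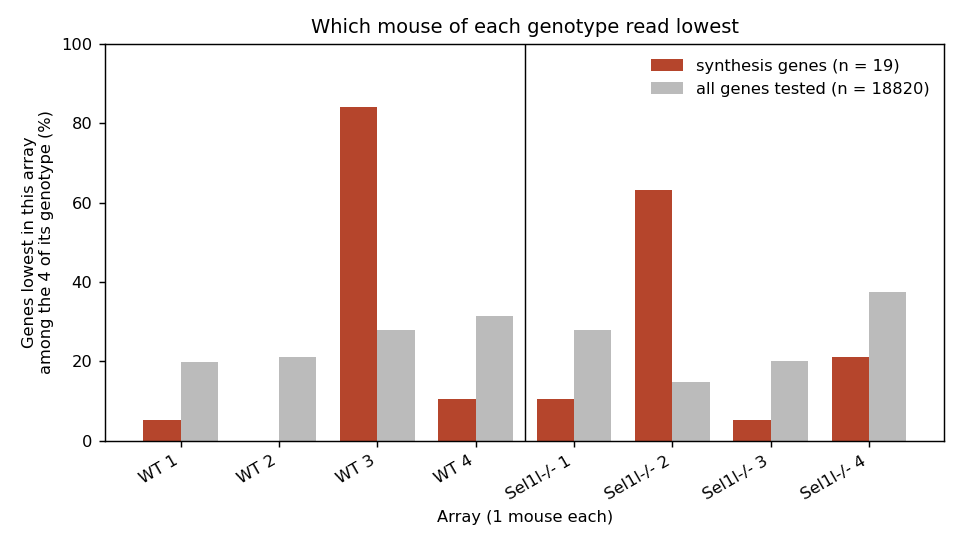
Share of genes (%) for which each array read lowest among the 4 of its genotype, for the 19 synthesis genes (red) and all 18820 genes tested (grey). WT 3 stands at 84.2% and Sel1l-/- 2 at 63.2% of the synthesis genes, against 27.8% and 14.7% of all genes.

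As a mean over the 19 genes, the arrays lay 0.07, 0.05, -0.24 and 0.13 from the WT mean in WT mice 1 to 4 and 0.24, -0.06, 0.10 and 0.15 in Sel1l-/- mice 1 to 4. The genotypes overlapped in this mean. The sign of the median difference rested on single mice. Of the 19 differences 12 were positive with all arrays (median 0.055), 9 without WT 3 (median -0.0094), 9 without Sel1l-/- 1 (median -0.02) and 13 without Sel1l-/- 2 (median 0.14). Lss kept its call without WT 3 and differed by 0.69 then, and Fdps differed by 0.54. On the same arrays the summed adipocyte markers of WT 3 were 15.96, the highest of the 8, and its summed macrophage markers were 13.80, the second lowest. In WT 1, whose mean over the 19 genes lay at 0.07, these sums were 15.94 and 13.80, the second highest and the lowest. In Sel1l-/- 2 they were 15.73 and 14.36, inside the range of the other mice. The part of cell makeup in this pattern was not tested.

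In 4 lists of other sterol genes, with 17, 12, 12 and 14 measured, 2 genes rose, Gramd1b and Osbp, and none fell, where 1.72% of all genes passed. With the replicate block Rxra, the receptor that pairs with LXR, fell (-0.32, adjusted p = 0.0362), named after its values were seen. Gramd1b and Osbp are both carriers at contact sites of the ER with other membranes. Gramd1b, or Aster-B, brings cholesterol from the plasma membrane to the ER. It read 8.75, 9.07, 8.92 and 8.96 in WT and 10.00, 9.77, 9.91 and 9.78 in Sel1l-/- mice, with a gap of 0.70 between the groups. The level was 1.92-fold higher (log2 difference 0.94, standard error 0.09, adjusted p = 0.00334). It was the only 1 of 14 measured genes of cholesterol transport and storage to pass. An unadjusted p under 0.05 was reached by 3 of the 14, against 15.0% of all genes. Of its relatives in the list, Gramd1a differed by 0.25 (limma adjusted p = 0.0992) and Gramd1c by 0.06 (0.842), both named after their values were seen.

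Osbp, which carries cholesterol from the ER to the Golgi in exchange for a phosphoinositide, was the only gene to pass of 12 in the list of LXR and oxysterol genes. It read 9.89, 9.87, 9.79 and 9.83 in WT and 10.31, 10.28, 10.24 and 10.20 in Sel1l-/- mice, groups well apart with little spread. The level was 1.33-fold higher (log2 difference 0.41, standard error 0.05, adjusted p = 0.0103). Both Gramd1b and Osbp kept their call without any 1 array, and lost it with the letter (adjusted p = 0.161 and 0.202) or the number (0.0544 and 0.0837) of the mouse code as a block. Among the letter F mice they differed by 0.92 and 0.46.

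None of 17 further genes of the mevalonate and isoprenoid branches and of SREBP targets passed limma's threshold. An unadjusted p under 0.05 was reached by 2 of the 17, against 15.0% of all genes. The 2 were Fntb and Nus1, both users of farnesyl diphosphate. Fntb is a subunit of protein farnesyltransferase, and Nus1 one of the enzyme that makes the dolichol chain for N-glycans. Fntb read 7.64, 7.69, 7.86 and 7.89 in WT and 8.15, 8.07, 8.04 and 8.05 in Sel1l-/- mice (difference 0.31, adjusted p = 0.0835, and 0.0354 with array weights). Nus1 read 9.88, 10.05, 9.89 and 10.21 in WT and 10.38, 10.34, 10.30 and 10.60 in Sel1l-/- mice (difference 0.40, adjusted p = 0.0913, and 0.0293 with the replicate block). In both genes the groups did not overlap, as in 3 of the 17 (17.6%) and in 10.3% of all genes. Both were named for the smallest p of the list, so separate groups follow largely from that choice. The letter F mice differed by 0.22 in Fntb and 0.16 in Nus1.

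None of 12 genes of SREBP proteolysis and sterol-regulated ER degradation passed limma's threshold. An unadjusted p under 0.05 was reached by 4 of the 12, against 15.0% of all genes. Rnf145, a sterol-responsive ubiquitin ligase of the ER membrane, had WT arrays at 9.49 ± 0.09 and Sel1l-/- arrays at 9.25 ± 0.03 (SD, n = 4), a difference of -0.24 (-0.37 to -0.10, adjusted p = 0.111). Erlin1, a cholesterol-binding scaffold of ER degradation, read 9.28 to 9.40 in WT and 9.43 to 9.85 in Sel1l-/- mice, a difference of 0.26 (0.06 to 0.47, adjusted p = 0.215). The arrays did not overlap in either gene, as in 3 of the 12 (25%) and in 10.3% of all genes. Both were named for the smallest p of the list.

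**Figure D5:**
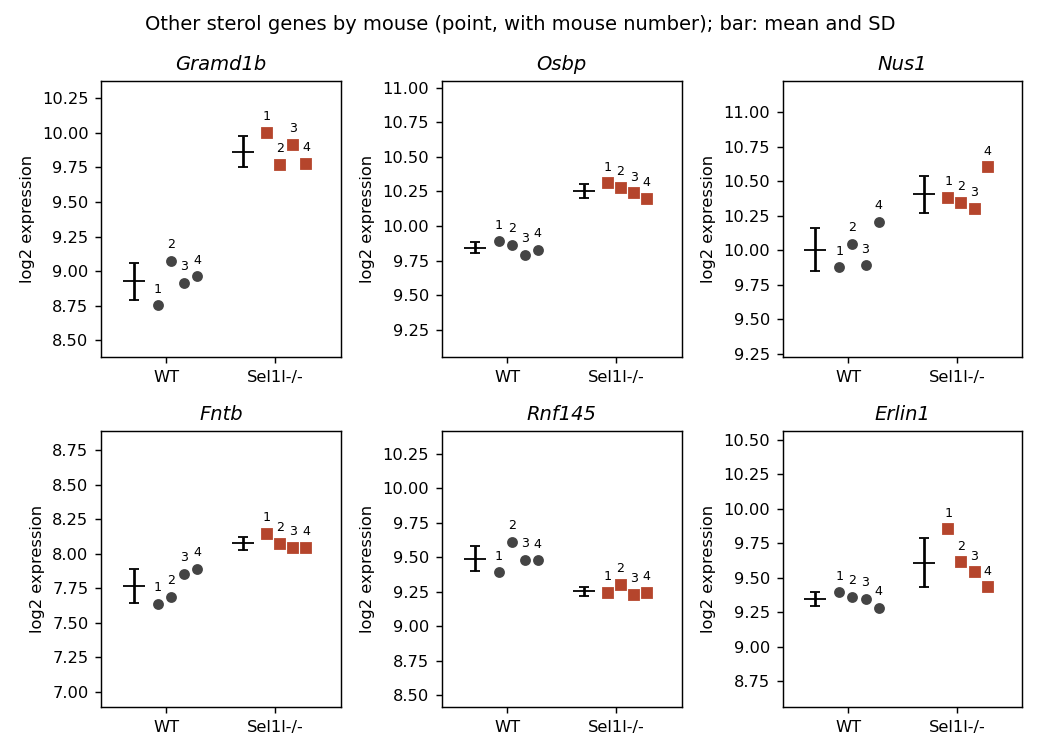
Log2 expression of 6 other sterol genes in each mouse (grey circles WT, red squares Sel1l-/-, with the number of the mouse, and mean with SD beside them); all panels span the same 2 log2 units. The genes were picked for passing the threshold or else for the smallest p of their list. Separate groups follow largely from that choice. The genotypes do not overlap in any of the 6, where 10.3% of all genes do not overlap. Gramd1b, at 0.94, and Osbp, at 0.41, are those that passed the threshold.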

How the data were processed

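Total RNA of 8 mice was hybridised to 1-colour whole-transcript arrays, 1 per mouse, per the labels. The authors deposited log2 values made with RMA, per the submitters' processing notes. That the scale is log2 follows from their range, 1.72 to 13.9, and from RMA itself, whose version and filters the sources used here do not state. RMA gives all arrays 1 distribution, so a shift common to most transcripts is lost, and changes near background come out too small. Median probe sets lay at 6.05 to 6.08 on WT and 6.10 to 6.14 on Sel1l-/- arrays.

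Of 35556 probe sets, 21218 named 1 gene in the platform annotation, 1881 several and 12457 none, and the brightest probe set represented each gene. Genotypes were compared over 18820 genes with limma 3.58.1 under R 4.3.3 (a linear model with moderated variances, two-sided, Benjamini-Hochberg adjustment over all genes, threshold 0.05). Tested on simulated data of this comparison with 18820 genes, the fit called 41 of 68 genes changed by 0.5 on the log2 scale, 59 of 66 changed by 1 and 63 of 66 changed by 2. It also called 8 unchanged genes. The changed genes were drawn at random from all genes, and each gene varied independently with its own SD. The synthesis genes spread more (median SD 0.24, against 0.13 over all genes) and often in the same mice, so these rates cannot be read as theirs. Figures were drawn with matplotlib 3.10.9.

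The members and lists were chosen by known roles, with earlier results of these data known. All measured members were named, with Sel1l and, from each other list, the genes past the threshold or else the 2 with the smallest p. Deviations from the group means over all genes correlated at 0.518, 0.107, 0.363 and 0.524 in same-numbered mice, so the numbers were tried as pairs. Differently numbered mice ran from -0.489 to 0.328, and WT 3 with Sel1l-/- 1 (0.328) and WT 2 with Sel1l-/- 4 (0.327) exceeded same-numbered pair 2. The pairing rests on these data alone, and no label says what the numbers share. The letter and number of the mouse code in the labels, whose meaning is not given there, were tried as blocks. Letter E held only WT and letter G only Sel1l-/- mice, so the letter block rests on the letter F mice alone. Differences are Sel1l-/- minus WT. The number of arrays, 4 per genotype, limits the precision.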

Additional observations from a re-analysis of the deposited data

Results flagged for a closer look

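In 4 of the 74 groups of 4 arrays examined (37 named genes in 2 genotypes), 1 array stood apart from the other 3, its gap to the next, as a share of the range, exceeding Dixon's 95% critical value, which chance exceeds in about 5% of groups. WT 4 read 11.38 for Hmgcs1, the highest of its group, with a gap of 0.41. Sel1l-/- 2 read 7.54 for Cyp51, the lowest of its group, with a gap of 0.63. WT 3 read 10.46 for Nsdhl, the lowest of its group, with a gap of 0.29. Sel1l-/- 4 read 10.24 for Ebp, the highest of its group, with a gap of 0.64.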

How the results depend on the processing

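With all arrays 195 genes were higher and 129 lower. The replicate block gave 358 and 367, array weights 347 and 219, an unmoderated test 87 and 37, a block by mouse code letter 7 and 13, by code number 8 and 3, and centring on the median over all probe sets, chosen after seeing the data, 119 and 154. Leaving out 1 array gave 66 to 244 higher and 31 to 140 lower. Of these calls 60.2% were higher, against 68.6% with arrays centred on the genes tested, 43.6% centred on all probe sets and 49.4% with the replicate block. Members that rose were 1, and 2 with gene centring, the replicate block, weights, trended moderation or the dimmest 25% or dimmer 50% of genes left out, 0 with letter, number or no moderation, and 0 to 1 without 1 array. Members that fell were 0, and 1 with the replicate block. The block changed no call of a named gene besides Fdps, Fdft1 and Nus1. Of 37 named genes 20 kept their sign throughout. The letter as a block compares only WT 4 with Sel1l-/- 1 and 2. In that fit the difference became 0.020 for Pmvk, -0.16 for Mvd, 0.012 for Fdft1, -0.037 for Cyp51, -0.55 for Tm7sf2, -0.10 for Msmo1, -0.10 for Hsd17b7, 0.032 for Srebf2, 0.037 for Scap, 0.083 for Insig2, 0.00066 for Stard4, -0.42 for Tmem97 and -0.45 for Abcg1. With weights it was -0.041 for Msmo1 and -0.040 for Hsd17b7. Centring on probe sets gave -0.021 for Ggps1 and -0.0017 for Abcg1, and on genes 0.0015 for Dhcr7 and 0.019 for Srebf2. Leaving out 1 array gave -0.18 to 0.027 for Pmvk, -0.090 to 0.15 for Ggps1, -0.070 to 0.14 for Msmo1, -0.059 to 0.12 for Hsd17b7, -0.020 to 0.18 for Sc5d, -0.21 to 0.12 for Dhcr7, -0.037 to 0.028 for Srebf2, -0.14 to 0.011 for Insig2, -0.12 to 0.18 for Abcg1 and -0.20 to 0.054 for Mylip. The cause of these turns was not tested. Npc1l1 and Stard4, dim probe sets, dropped out with the dimmer 50%.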
